A study of Mus musculus with 3 samples.

Results

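Cholesterol synthesis and its control by the SREBP factors were followed through 7 genes in double-positive (DP) thymocytes, developing T cells that carry CD4 and CD8 at once. The genes were chosen by name: the enzyme genes Hmgcs1, Fdft1, Sqle and Lss, the factor genes Srebf1 and Srebf2, and Insig1, a regulator of both factors. They are 7 of 19938 genes that have a probe set with a single gene symbol on the array, and each gene is represented by its probe set with the highest mean. The series has 1 group of 3 Affymetrix arrays, each from total RNA of wild-type C57BL/6 DP thymocytes of a cohort of littermates aged 5 to 6 weeks. Thymocytes were sorted on beads for CD8 and then for CD4. Formaldehyde fixation appears in the same protocol text, and whether it was applied to the cells used for RNA is unclear. There is no second condition, so the questions are whether these genes were detected and how far they differed between the 3 cohorts, and no sex or number of animals per cohort is given.

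As background, cholesterol is built from acetyl-CoA through mevalonate, squalene and lanosterol. The SREBP proteins wait in the membrane of the endoplasmic reticulum. When sterols run low, the escort Scap carries them to the Golgi, where proteases free a fragment that enters the nucleus and activates sterol response elements, while Insig proteins hold Scap and SREBP back when sterols are plentiful. In T cells the pathway supplies membrane sterol for cell division, and intermediates below lanosterol are known as ligands of RORgammat, a nuclear receptor of DP cells.

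The promoters of 4 of the genes are shown because they set genes that differed between cohorts (Hmgcs1 and Insig1) beside a gene that differed little (Srebf2) and one with its lowest value on array 1 (Lss). Each is a window of 300 bases, from 250 before to 50 after a transcript start, taken from RefSeq on build GRCm38.p6 and written 5′ to 3′ on the gene's strand, which is the plus strand for all 4. The windows are chr13:119690101-119690400 for Hmgcs1, chr5:28071162-28071461 for Insig1, chr15:82147019-82147318 for Srebf2 and chr10:76531355-76531654 for Lss. Capitals mark matches on either strand to TCACNCCA, the core of a sterol response element, to the palindromic E-box CACGTG, and to the CCAAT box, which reads ATTGG on the other strand.
Hmgcs1: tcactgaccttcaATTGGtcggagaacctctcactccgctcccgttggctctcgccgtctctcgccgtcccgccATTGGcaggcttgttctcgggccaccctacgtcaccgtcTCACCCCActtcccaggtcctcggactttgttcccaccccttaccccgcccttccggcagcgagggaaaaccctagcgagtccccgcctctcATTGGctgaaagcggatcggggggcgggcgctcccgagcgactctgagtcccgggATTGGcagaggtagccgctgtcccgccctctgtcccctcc
Insig1: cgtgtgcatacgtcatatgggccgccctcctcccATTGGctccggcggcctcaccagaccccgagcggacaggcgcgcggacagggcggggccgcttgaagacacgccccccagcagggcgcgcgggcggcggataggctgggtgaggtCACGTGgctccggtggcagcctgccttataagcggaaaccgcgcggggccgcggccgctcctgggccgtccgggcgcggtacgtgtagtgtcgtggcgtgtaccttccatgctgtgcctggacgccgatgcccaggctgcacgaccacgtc
Srebf2: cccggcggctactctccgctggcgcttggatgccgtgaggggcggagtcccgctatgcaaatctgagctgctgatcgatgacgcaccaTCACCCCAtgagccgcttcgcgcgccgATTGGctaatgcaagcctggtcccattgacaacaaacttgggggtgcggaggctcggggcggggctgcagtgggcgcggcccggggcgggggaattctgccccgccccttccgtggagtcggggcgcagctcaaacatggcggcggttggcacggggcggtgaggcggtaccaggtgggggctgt
Lss: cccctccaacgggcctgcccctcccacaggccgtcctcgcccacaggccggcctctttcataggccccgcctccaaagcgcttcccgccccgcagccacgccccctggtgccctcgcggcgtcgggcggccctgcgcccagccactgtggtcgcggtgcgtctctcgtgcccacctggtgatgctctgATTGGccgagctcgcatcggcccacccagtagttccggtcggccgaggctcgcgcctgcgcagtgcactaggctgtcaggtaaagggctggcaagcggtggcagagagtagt

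The Hmgcs1 and Srebf2 windows each held TCACCCCA, starting 137 and 162 bases before the transcript start. No match to TCACNCCA lay in the windows of Insig1 and Lss or in the 3 windows of Srebf1. Insig1 alone among the 7 windows had CACGTG, starting 101 bases before the start. A CCAAT box was in 6 of the 7, Hmgcs1 having 4 of them, and a GC box, GGGCGG, was in 6 of the 7 as well. Over all 32851 windows of that length in the RefSeq table, 4.36% held TCACNCCA, 7.15% CACGTG, 37.4% CCAAT and 35.7% GGGCGG on either strand. None of the matches overlapped another kind of match in the 4 windows printed. The motifs were picked with the sequences known, a match is only a string of letters, and a window without one says nothing about more distant sequence. Of 24 sterol enzyme and SREBP control genes measured, 21 had a window in that table and 3 had TCACNCCA in one: Hmgcs1, Srebf2 and Msmo1, an oxidase of methyl sterols. Over all 27025 genes of the table, 1343 (4.97%) had it in at least 1 window.

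All 7 genes were expressed in all 3 cohorts. A gene was called above background on an array where its log2 expression value exceeded the 95th percentile of probe sets for 123 genes of other organs. This limit stood at 7.25 for array 1, 7.38 for array 2 and 7.33 for array 3. By that rule 7 of 7 genes were above background on every array, against 42.1% of all 19938 genes. The median of the 3-array means was 9.13 for the 7 genes and 6.85 for all genes. It was 9.06 for the 8395 genes above background on all arrays, so the 7 lay near the usual level of detected genes. Brightness also depends on a probe set's own affinity, so the genes are not ranked by level.

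**Figure D1:**
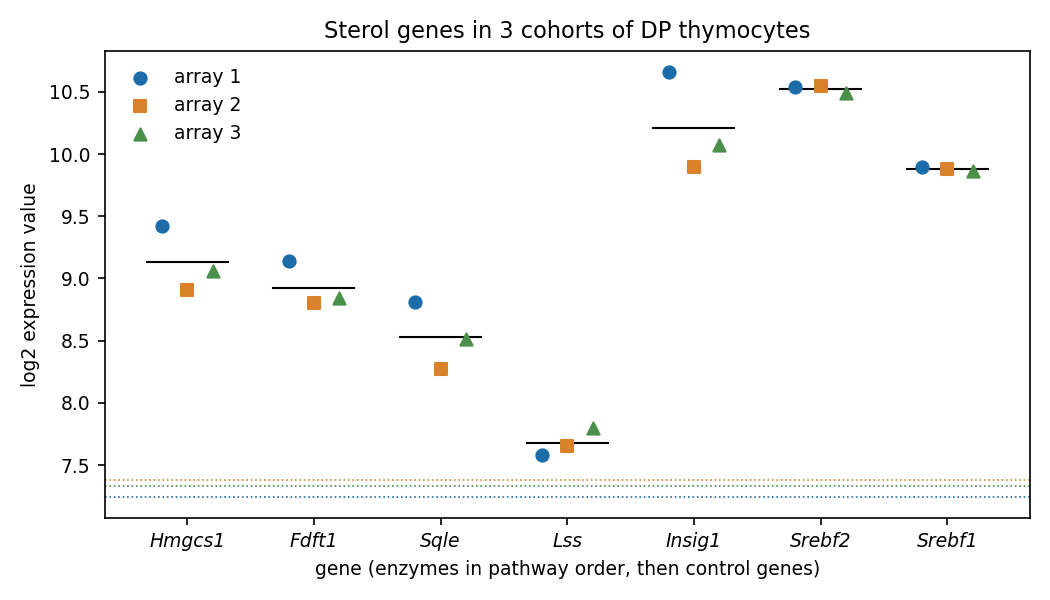
Log2 expression value (vertical axis) of each of the 7 genes (horizontal axis) on arrays 1 (circles), 2 (squares) and 3 (triangles). Black bars are means of 3 arrays and dotted lines are each array's background limit. Hmgcs1, Fdft1, Sqle and Insig1 are highest on array 1, while the symbols of Srebf1 and Srebf2 nearly coincide.

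Among the enzymes, Hmgcs1, the HMG-CoA synthase that makes the substrate for mevalonate formation, had log2 values of 9.42, 8.91 and 9.06 on arrays 1, 2 and 3. Its mean was 9.13 ± 0.26 (SD, n = 3). Array 1 was the highest, by 1.35-fold over the mean of arrays 2 and 3.

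Fdft1, squalene synthase, which joins farnesyl groups and commits carbon to sterols, had values of 9.14, 8.80 and 8.84 on arrays 1, 2 and 3 (8.93 ± 0.19, SD, n = 3). It was 1.25-fold higher on array 1 than on the mean of the other arrays, which nearly coincided. A further Fdft1 probe set, dimmer and not chosen, had 8.78, 8.22 and 8.18 and was 1.50-fold higher on array 1. Both probe sets therefore had the same order between array 1 and the rest.

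Sqle, squalene epoxidase, which adds the oxygen that becomes the sterol hydroxyl group, had values of 8.81, 8.27 and 8.51 on arrays 1, 2 and 3 (8.53 ± 0.27, SD, n = 3). It was 1.34-fold higher on array 1 than on the mean of arrays 2 and 3. Its arrays 2 and 3 were 0.24 log2 units apart, the widest such gap among the 7 genes.

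Lss, lanosterol synthase, which folds the epoxide into the first sterol, differed from the other enzymes in its order. Its values were 7.58, 7.65 and 7.80 on arrays 1, 2 and 3 (7.68 ± 0.11, SD, n = 3), lowest on array 1 and highest on array 3. Array 1 stood at 0.904 times the mean of the other arrays. Lss was also the gene nearest to background, and it was the 1 of the 7 below the stricter limit of the 99th percentile, which was 8.01, 7.84 and 7.85. With that limit 6 of 7 genes stayed above background, against 35.1% of all genes.

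Of the control genes, Insig1 varied most. Its values were 10.66, 9.90 and 10.07 on arrays 1, 2 and 3 (10.21 ± 0.40, SD, n = 3), so that array 1 was 1.60-fold above the mean of arrays 2 and 3. In Insig1, Hmgcs1 and Sqle array 1 was highest, array 2 lowest and array 3 between them. In Fdft1 array 1 was highest too, but its 2 probe sets gave opposite orders of arrays 2 and 3. Insig1, Hmgcs1, Fdft1 and Sqle are known SREBP targets. So are Lss and Srebf2, which were not higher on array 1 by 0.25 log2 units. Whether SREBP activity differed between cohorts was not tested.

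The factor genes hardly differed between cohorts. Srebf2, whose product mainly drives cholesterol synthesis, had values of 10.54, 10.55 and 10.49 on arrays 1, 2 and 3 (10.53 ± 0.03, SD, n = 3). Srebf1, whose products mainly drive fatty acid synthesis, had 9.90, 9.88 and 9.86 (9.88 ± 0.02, SD, n = 3). The Srebf1 probe set was read as 1 value for the gene and does not separate SREBP-1a from SREBP-1c. Transcript values also say nothing of how much SREBP protein was cleaved. Set against the 8395 genes above background on all arrays, the SD of Srebf1 was larger than that of 3.51% and the SD of Srebf2 than that of 9.18%. The SD of Lss was larger than that of 61.1% and the SD of Insig1 than that of 98.8%.

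No single gene of the 7 passed a test of this spread. Each probe set's variance over the 3 arrays was compared with that of probe sets of the same level (limma, F test against a robust mean-dependent prior, Benjamini-Hochberg adjusted over 28939 probe sets). Insig1 had an unadjusted p of 0.0096 and an adjusted p of 0.987. Hmgcs1 had 0.0491 and 0.988, and Sqle 0.0501 and 0.988. Fdft1, Lss, Srebf2 and Srebf1 had unadjusted p-values of 0.144, 0.47, 0.912 and 0.964. The dimmer Fdft1 probe set, which does not enter the counts of genes, had 0.0243 and an adjusted p of 0.988. An adjusted p under 0.05 was found for 0 of the 7 genes, against 0.0207% of all probe sets, and an unadjusted p under 0.05 for 2 of the 7, Insig1 and Hmgcs1, against 4.66%. With 1 array per cohort, array 1 has no replicate of its own. The test also had little reach: Gadd45b, an immediate-early gene 4.96-fold higher on array 1, had an adjusted p of 0.1945. Failing it therefore does not show that a gene was steady between cohorts.

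**Figure D2:**
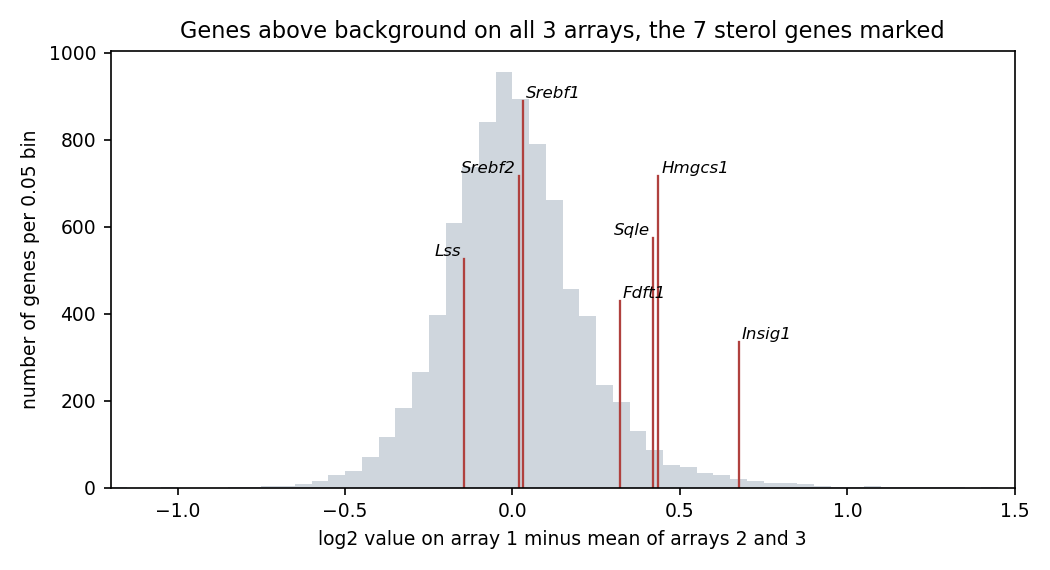
Number of genes (vertical axis, bins of 0.05) by the log2 value on array 1 minus the mean of arrays 2 and 3 (horizontal axis), for 8395 genes above background on all arrays. Grey bars count all of them and red lines, whose heights carry no value, mark the 7 genes. The axis stops at 1.5 and leaves out the few genes beyond. Insig1, Hmgcs1, Sqle and Fdft1 lie in the right tail, and Srebf1 and Srebf2 near 0.

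Counted together, 4 of the 7 genes were at least 0.25 log2 units higher on array 1 than on the mean of arrays 2 and 3, namely Insig1, Hmgcs1, Sqle and Fdft1. That size was set after the values were seen. The same was true of 10.9% of the 8395 genes above background, and 0 of the 7 were that much lower, against 9.24%. By order alone, 5 of 7 were highest on array 1, Srebf1 by only 0.02 log2 units, against 38.4%, and 1 of 7, Lss, was lowest there, against 41.3%. The mean difference over the 7 genes was 0.25 log2 units, and it was 0.20 without array 2 and 0.30 without array 3. The genes were chosen with earlier results of these arrays known, so these counts describe them and test nothing.

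The rest of the sterol pathway lay on both sides of 0 in the comparison of array 1 with the others. Of 21 sterol enzyme genes listed, 18 were measured here. Of these, 18 of 18 were above background on every array, against 42.1% of all 19938 genes. With the 99th percentile 12 were, against 35.1%. The median of their means was 8.62. Besides Hmgcs1, Fdft1 and Sqle, counted already among the 7, 3 more were at least 0.25 log2 units higher on array 1, namely Cyp51, Pmvk and Idi1. That makes 6 of 18, against 10.9% of the 8395 genes above background. Of the 14 enzymes outside the 7 genes, 3 were that much higher and 2 that much lower. The mean difference over those 14 was 0.004 log2 units. Cyp51, the lanosterol demethylase, had 8.07, 7.40 and 7.61 on arrays 1, 2 and 3. Its difference, 1.48-fold, was the largest of the 18 by the brightest probe set of each gene, with an unadjusted p of 0.0286 in the variance test. Cyp51 lay near background, however: its array 2 value was just above the limit of 7.38. On arrays 2 and 3 it was below the 99th percentile limits of 7.84 and 7.85. Pmvk, phosphomevalonate kinase, had 8.15, 7.85 and 7.77, also below the 99th percentile limit on array 3. Idi1, the isopentenyl diphosphate isomerase, had 9.24, 8.92 and 8.96, and its other probe set gave nearly the same values.

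In the opposite direction, 2 of the 18 were at least 0.25 log2 units lower on array 1, a share near the 9.24% of the 8395 genes. Lbr, a sterol reductase that is also a receptor of the nuclear lamina, had 12.26, 12.67 and 12.60 on arrays 1, 2 and 3. Msmo1, whose promoter window holds the same core as that of Hmgcs1, had 8.88, 9.13 and 9.25. Mvk, mevalonate kinase, also had its lowest value on array 1, with 7.68, 7.90 and 7.89. Its array 1 value was below the 99th percentile limit of 8.01. Enzymes such as Mvd, Fdps, Nsdhl, Ebp, Sc5d and Dhcr7 had SDs between 0.03 and 0.064. The median difference between array 1 and the other arrays was -0.012 log2 units over the 18 enzymes, against -0.005 over all 8395 genes above background.

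All 6 measured genes of SREBP control were above background, against 42.1% of all genes. Among them, Insig2 ran against Insig1. Insig2, a second protein that holds back Scap, had 8.15, 8.72 and 8.52 on arrays 1, 2 and 3, 0.722 times the mean of the others on array 1, with an unadjusted p of 0.0407. Mbtps1, the Golgi protease that makes the first cut in SREBP, had 11.23, 11.44 and 11.46. Scap had 9.41, 9.53 and 9.44. So the array with the highest Insig1 had the lowest Insig2, and neither difference passed the adjusted test.

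**Figure D3:**
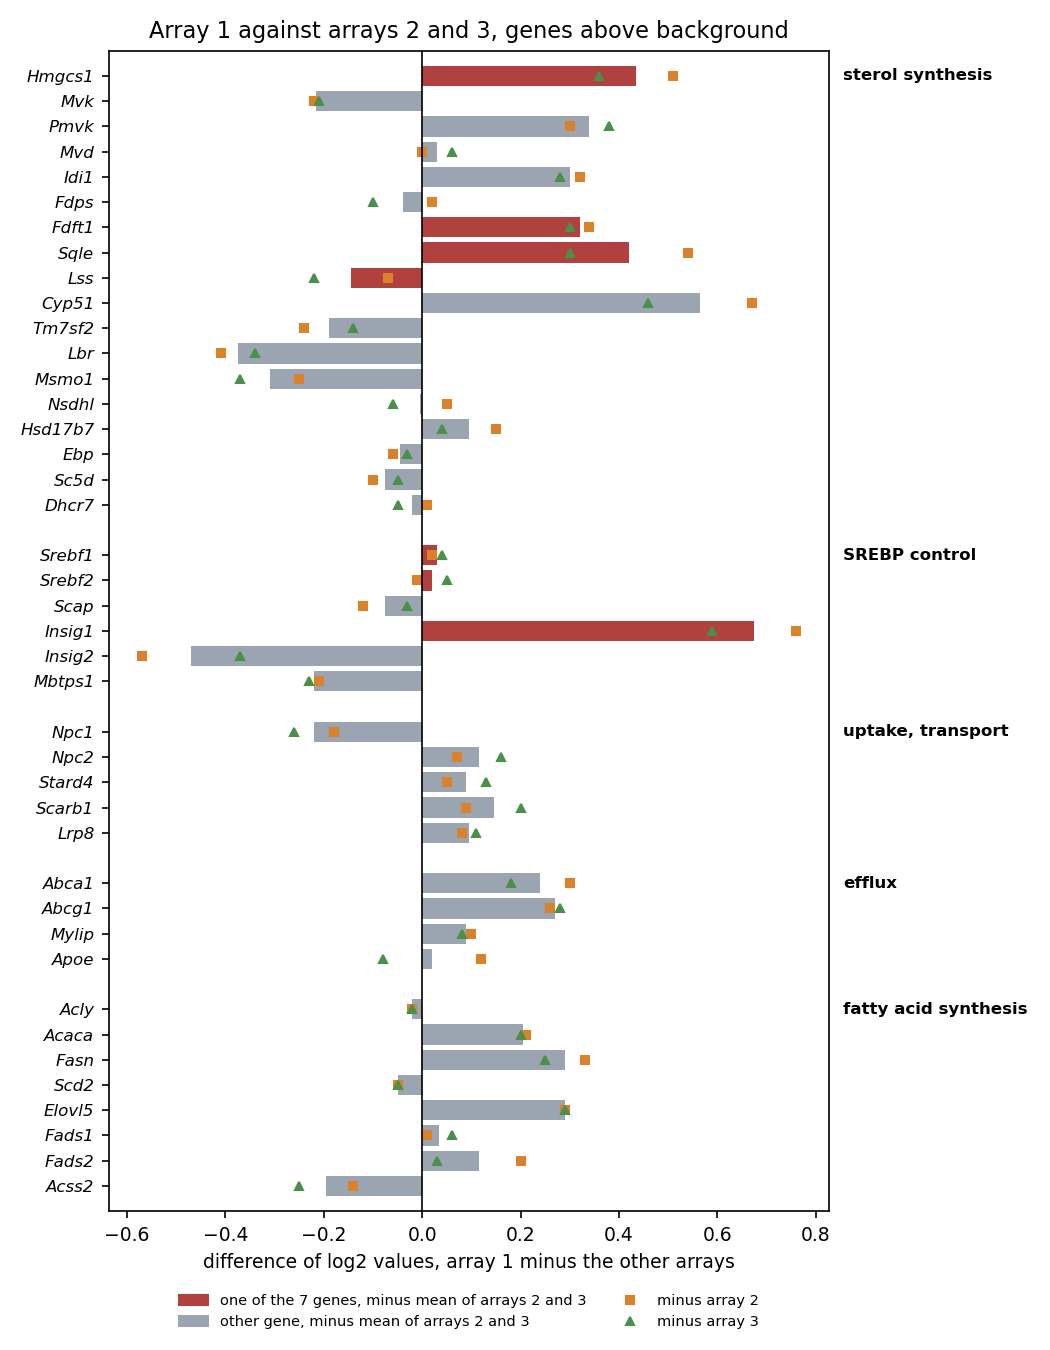
Difference of log2 values between array 1 and the other arrays (horizontal axis) for genes above background in 5 lists, with sterol enzymes in pathway order from the top. Bars give array 1 minus the mean of arrays 2 and 3, red for the 7 genes and grey for others, and squares and triangles give array 1 minus array 2 and minus array 3. Insig1 and Cyp51 extend farthest right, and Insig2 and Lbr farthest left.

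Genes that move sterols were detected as well. Of 6 measured uptake and transport genes, 5 were above background on all arrays, against 42.1% of all 19938 genes. Npc2 and Npc1 act together to export cholesterol from lysosomes. Npc2 had 10.01, 9.94 and 9.85 on arrays 1, 2 and 3, and Npc1 had 9.31, 9.49 and 9.57. Npc1l1, the intestinal sterol importer, was below background with 6.61, 6.68 and 6.65. None of the 6 differed by 0.25 log2 units or more on array 1. Of all 19938 genes, 2248 were that much higher and 2225 that much lower. With 6 genes, a count of 0 says little.

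Of 6 efflux and storage genes, 4 were above background, against 42.1% of all 19938 genes. Abcg1 and Abca1 are transporters that export cholesterol and are known targets of the liver X receptors. Abcg1 had 11.10, 10.84 and 10.82 on arrays 1, 2 and 3, and Abca1 had 9.33, 9.03 and 9.15. Both were highest on array 1, by 1.21-fold and 1.18-fold. Mylip and Apoe, also above background, differed less on array 1. Mylip had 9.68, 9.58 and 9.60, and Apoe had 9.43, 9.31 and 9.51, highest on array 3. Nr1h3, which encodes a liver X receptor, was below background with 6.02, 6.26 and 6.26. All 6 genes of oxysterol and bile acid formation were below background on every array, as were 10891 of all 19938 genes. Of the 6, Ch25h, which makes an oxysterol that acts on Insig proteins, had 5.44, 5.01 and 4.88.

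The branches beside cholesterol were also expressed. All 8 measured genes of the nonsterol isoprenoid branch were above background, against 42.1% of all genes. None of the 8 differed by 0.25 log2 units or more on array 1. Of the 8395 genes above background, 10.9% were that much higher and 9.24% that much lower. With 8 genes, a count of 0 says little. Of 12 fatty acid synthesis genes, 8 were above background on all arrays, against the same 42.1%. Fasn, fatty acid synthase, had 9.48, 9.15 and 9.23 on arrays 1, 2 and 3. Elovl5, a fatty acid elongase, had 10.65, 10.36 and 10.36. These 2 of the 8 were at least 0.25 log2 units higher on array 1, against 10.9%, and 0 were that much lower, against 9.24%. Scd2 and Scd1, both stearoyl-CoA desaturases, lay on opposite sides of the limit. Scd2 had 11.34, 11.39 and 11.39, and Scd1, the main form in liver, was below background with 5.68, 5.40 and 5.28. Acly, which makes cytosolic acetyl-CoA for both sterols and fatty acids, differed little, with 10.49, 10.51 and 10.51. No gene of these lists passed the adjusted variance test.

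The 5 genes with the pattern most like that of Insig1, the most variable of the 7, were Hint1, Snord49b, Snora31, Tob2 and Bach2. Likeness was the Euclidean distance between deviations from each gene's own mean over the 3 arrays, among 8388 other genes above background. The distances ran from 0.0082 for Hint1 to 0.0356 for Bach2 log2 units. Hint1 had 9.64, 8.87 and 9.05 and Bach2 8.49, 7.78 and 7.92 on arrays 1, 2 and 3. With 3 points per gene many genes match closely.

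Array 1 stood apart in other ways that run beside the sterol genes. Pearson's r over 28939 probe sets was 0.996 between arrays 2 and 3 and 0.993 for array 1 with either. The 20 immediate-early genes, 15 of them above background, averaged 9.55, 8.55 and 8.59 on arrays 1, 2 and 3, with Fos at 9.39, 7.86 and 8.27. Of 14 myeloid and dendritic markers 1 was above background on all arrays, against 42.1% of all 19938 genes. The class II genes Cd74, H2-Ab1 and H2-Aa averaged 8.84, 7.31 and 8.12, in the same order of arrays as Insig1, Hmgcs1 and Sqle. The averages of immediate-early genes, B cell markers and the myeloid markers outside class II had that order too, while Srebf1, Srebf2 and Lss did not. Few orders are possible with 3 arrays, and the share of all genes with this order was not counted. The other 11 myeloid and dendritic markers averaged 6.42, 6.17 and 6.23. Of these, 10 were below background on every array, Csf1r and Itgam among them, and Cd68 passed the limit on array 1 alone, with 7.45. At least 0.25 log2 units higher on array 1 were 5 of the 11, against 2248 of all 19938 genes, and 0 were that much lower, against 2225. Fcer1g differed most, with 6.87, 6.13 and 6.02. B cell markers had 1 of 7 above background (averages 5.95, 5.75 and 5.92) and thymic epithelial markers 3 of 10 (6.98, 7.21 and 7.30).

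All 9 measured DP markers, the sorted Cd4, Cd8a and Cd8b1 among them, were above background, with averages of 11.43, 11.68 and 11.66 on arrays 1, 2 and 3. Of the 9, 8 were lowest on array 1, including those 3, against 41.3% of the 8395 genes above background. Rag2, a subunit of the V(D)J recombinase, differed most, with 8.69, 9.51 and 9.54. Cd3e went the other way and was highest on array 1, with 12.29, 12.01 and 11.94. At least 0.25 log2 units lower on array 1 were 3 of the 9, against 9.24%, and 1 was that much higher, against 10.9%. None of 9 hepatocyte and adipocyte markers was above background, Alb and Adipoq included, nor any of 4 erythroid markers. Of 8 stromal and endothelial markers, 1 was, Col1a1. Of all 19938 genes, 42.1% were above background. Xist, expressed from the inactive X chromosome of females, had 11.65, 5.40 and 5.68, so the cohorts also differed in sex. The part of cell composition, DP marker level, sex or the immediate-early difference in the values of the sterol genes was not tested, and with 1 array per cohort they cannot be told apart. In sorted bulk RNA, fewer cells of a type and less RNA per cell cannot be told apart either.

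**Figure D4:**
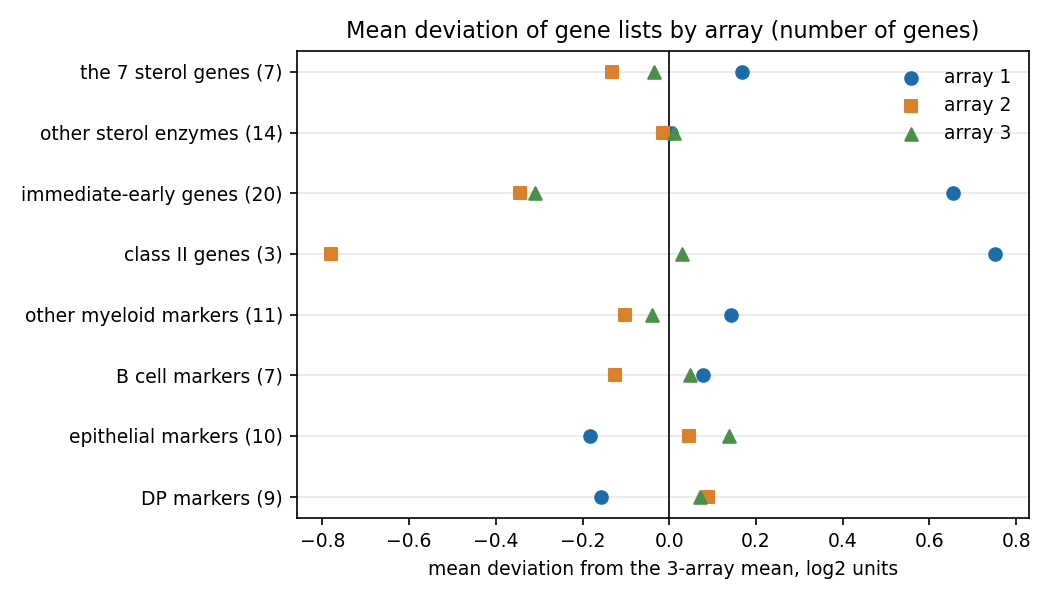
Mean deviation from the 3-array mean in log2 units (horizontal axis) for 8 groups of genes (vertical axis, number of genes in brackets) on arrays 1 (circles), 2 (squares) and 3 (triangles). The 7 sterol genes lie at 0.17, -0.13 and -0.04, in the same order of arrays as the immediate-early, class II, other myeloid and B cell groups. The 14 other sterol enzymes lie near 0 on every array.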

How the data were processed

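The authors deposited 1 log2 value for each of 35556 probe sets on each array. The log2 unit was inferred from their range, 1.6 to 14.94. Per the submitters' processing notes the R package affy was used. The sources used here give no settings, version or genome build for it. The arrays have nearly the same quartiles (5.39 and 8.64 on array 1, 5.41 and 8.62 on arrays 2 and 3), so a global change in RNA content would not be visible.

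Of the probe sets, 21789 have 1 gene symbol, 1621 several and 12146 none in the platform's annotation, and only the first kind named genes. Gene IDs of 21698 matched RefSeq GRCm38.p6, with 0 symbols changed. The 6617 probe sets numbered below the first with a symbol were left out as controls. Genes without a probe set of their own were not analysed here. The variance test used limma 3.58.1 in R 4.3.3, and other steps Python 3.11.15. The variance test and the motif search were tested on simulated data. The shifts simulated for the variance test were larger than any difference of the 7 genes, so its reach at those sizes was not simulated. The members and lists were chosen with earlier results of these data known. All 7 genes are named, others by role from the lists, and the 5 nearest to the most variable member by distance. The number of arrays limits the precision.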

Additional observations from a re-analysis of the deposited data

How the results depend on the processing

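The count of the 7 genes above background was 6 or 7 under every alternative run (2 other limits, quantile normalization, median centring, the mean of probe sets, and each array left out), and the counts of the other sterol and lipid lists stayed within 1.5 times. The mean array 1 difference over the 7 genes ran from 0.20 to 0.30 log2 units, and 4 to 6 genes were highest on array 1. The variance test called 0 of the 7 genes under every setting. The number of all probe sets it called depended on the setting. It was 6 as reported, 3 with a prior that was not robust, 0 with a prior without trend (1157 at an unadjusted p under 0.05), 0 among probe sets above background alone (515 unadjusted), and from 0 to 18 with 1 array left out, 18 of them without array 1 and 0 without array 2 (1120 unadjusted) or array 3 (1013 unadjusted). The cause was not tested. Members with an unadjusted p under 0.05 numbered 2 as reported, 3 with median centring, 0 without array 1, and 1 without array 2, with quantile normalization, with either other prior and among probe sets above background alone. No paired analysis was possible because there is 1 group. Background correction and scan batch could not be varied from processed values. Among the 7 genes, signal near background limits Lss most.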
